A study of Bos taurus with 8 samples.

Results

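Heat shock proteins and the other protein-folding chaperones were followed in blood granulocytes of 4 cows, each sampled at 2 times. The members were all named genes whose symbol begins with HSPA, HSPB, HSP90 or DNAJ, or with CCT and a digit, and HSPD1, HSPE1, HSPH1 and TCP1. This gave 45 genes of the 5985 named on the array, read by 48 probes, and 41 of them passed the detection filter that left 4400 genes in all. HSPD1 and HSPH1 had no probe under those symbols. One array was made per cow on day 7 of the oestrous cycle, with the cow not pregnant and embryo transfer still to come, and another on day 21 with the cow pregnant from the transferred embryo. The 4 arrays of a group are therefore separate animals, and the animals of both groups are the same. Breed, age and how the granulocytes were separated are not given in the sources used here. Day, pregnancy, transfer and the order of sampling cannot be told apart.

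Chaperones bind proteins that are not yet folded or have lost their fold. HSP70 proteins hold such clients in cycles of ATP hydrolysis started by J proteins (the DNAJ genes), HSP90 proteins act on partly folded kinases and receptors, the TRiC chaperonin (TCP1 and the CCT genes) encloses clients such as actin and tubulin, and small heat shock proteins keep clients from aggregating. Each compartment has its own set: HSPA5 and HSP90B1 serve the endoplasmic reticulum, and HSPA9 and HSPE1 the mitochondrion. In cattle, the HSP70 transcript of blood leukocytes is widely measured in studies of heat stress.

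The sequences of 3 HSP70-family probes are shown because the genes they read lay on opposite sides of 0 although the proteins are related. All array probes are single strands of 60 bases, and these are copied from the deposited scanner tables, 5′ to 3′. Capitals mark the bases that HSPA5 and HSPA1A share when the end of the first is laid on the start of the second.
HSPA5: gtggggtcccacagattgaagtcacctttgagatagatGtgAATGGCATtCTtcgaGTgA
HSPA1A, dimmer of its probes: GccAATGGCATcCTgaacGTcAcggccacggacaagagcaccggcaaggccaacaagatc
HSPA2: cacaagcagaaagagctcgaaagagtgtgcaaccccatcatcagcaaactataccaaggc
The shared stretch spans 22 bases, of which 14 match (63.6%), and the longest run in common is 8 bases. No other pair among the HSP70-family probes reached that identity over an ungapped overlap of at least 20 bases. No probe outside the member genes carries the sequence of a member's probe.

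Values are log2 processed signals scaled by subtracting each array's 75th percentile, so 0 is the level of a probe at that percentile and a difference of 1 is a 2-fold difference. A change is the day 21 mean minus the day 7 mean, given with its standard error (4 arrays a group). Levels are compared between arrays for 1 probe, never between probes. The arrays had a median processed signal of 49.1 to 186.9, between 56.8% and 74.9% of their probes were well above background, and no spot was saturated. They lay on 4 slides. Cow 1 had both arrays on slide 1, cow 3 on slide 3 and cow 4 on slide 4. Cow 2 had its day 7 array on slide 1 and its day 21 array on slide 2. The difference of cow 2 between days is thus also one between slides. Slide 2 held that day 21 array alone, so a fit with slide as a fixed block takes the change from the other arrays. The first principal component (40.1% of the variance) put slide 1, which carried cow 1 on both days and cow 2 on day 7, at -84.8 to -43.3 and the remaining arrays at 21.1 to 52.1. All 15 neutrophil markers on the array passed the detection filter. From day 7 to day 21, 14 of these 15 had a mean change below 0, 3 of them at an unadjusted p under 0.05. Day 21 of cow 1 set some of these means: CXCR1 differed by -8.44 in cow 1 and by 1.43, 1.42 and 1.53 in cows 2 to 4, and MMP9 by -3.72 against 1.88, 0.30 and 0.01. The summed linear level of the 14 neutrophil markers with a value on every array (S100A12 had none on day 21 of cow 2) ran from 179.4 to 220.6 on day 7 and from 126.3 to 178.8 on day 21. Of 6 monocyte and macrophage markers, 5 were higher, 2 of them at that threshold, with sums of 6.45 to 9.46 and 10.6 to 17.5. C1QA, 1 of these 5, was well above background on 1 of 4 day 7 arrays and 3 of 4 day 21 arrays. Among all tested genes, 57.6% were above 0, with 5.3% higher and 3.3% lower at that threshold. In such bulk RNA fewer cells of a type and less RNA per cell cannot be told apart, and the part of these markers in the chaperone values was not tested.

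No chaperone gene passed limma's test after Benjamini-Hochberg adjustment over all probes: 0 of 41 members and 0 of 10459 probes had an adjusted p under 0.05, and the smallest over all probes was 0.219. At an unadjusted p under 0.05, 5 members were higher on day 21 (DNAJC5, HSPA9, HSPA5, HSP90AB1 and DNAJB6) and 2 were lower (HSPBAP1 and HSPA1A). With normexp background correction and percentile scaling the counts were 5 and 1, and over all probes 387 and 404. DNAJC5 and HSPBAP1 were not under 0.05 there, so the genes counted differ from those of the main fit. In the main fit, the counts of 5 and 2 are 12.2% and 4.88% of the 41, beside 5.3% higher and 3.3% lower among all 4400 tested genes. In either direction it was 17.1% beside 8.59%. Over all probes, 522 (4.99%) were higher and 461 (4.41%) lower at this threshold, 9.4% together. With cow as a replicate block, the counts were 9 members higher and 3 lower, over all probes 1031 and 938, again with 0 adjusted calls; DNAJB12, DNAJC6, HSPA13 and TCP1 joined the higher members and HSPA2 the lower. The 5 higher members became 1 without the day 21 array of cow 2, 2 without day 21 of cow 4, and 3 without day 7 of cow 2 or day 7 of cow 3. Over all probes, the 522 higher became 268, 277, 384 and 390 in these fits, in that order. The 2 lower members became 1 without day 7 of cow 2, 3 or 4, or day 21 of cow 3 or 4. There the 461 lower probes became 277, 375, 333, 343 and 282. Limma's array quality weights, which gave the arrays of cow 4 weights of 3.27 and 7.02 and those of cow 1 0.293 and 0.295, called 7 members higher and 4 lower after adjustment, and 879 and 821 probes.

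The chaperone genes as a whole lay slightly above the array in direction. Of the 41, 30 had a change above 0 (73.2%, beside 57.6% of all tested genes), and their median change was 0.19 beside 0.11. After normexp and quantile normalization 27 were above 0 and the median was 0.10, beside 52.9% and 0.02 over all tested probes. Their changes were not larger in size: the median absolute change was 0.33 against 0.40 for all genes. Within cows 1 to 4 the members' median difference was -0.02, 0.16, 0.14 and 0.27, and that of all genes -0.09, 0.19, 0.10 and 0.10. Within the 3 slides that held both days the members' medians were 0.23, 0.14 and 0.27 (slides 1, 3 and 4), and those of all genes 0.09, 0.10 and 0.10. The slide 1 value, here and below, is day 21 of cow 1 minus the mean of day 7 of cows 1 and 2. The values of slides 3 and 4 are the differences of cows 3 and 4 again. The day 7 and day 21 arrays did not overlap for 4 higher members (9.76%, beside 3.48% of all genes) and 1 lower member (2.44%, beside 1.89%). The higher ones were CCT4, DNAJC5, HSP90AB1 and TCP1, and the lower one was HSPBAP1. In 4 of 4 cows, 9 members were higher (22%, beside 16.9%) and 3 were lower (7.32%, beside 12.4%).

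**Figure D1:**
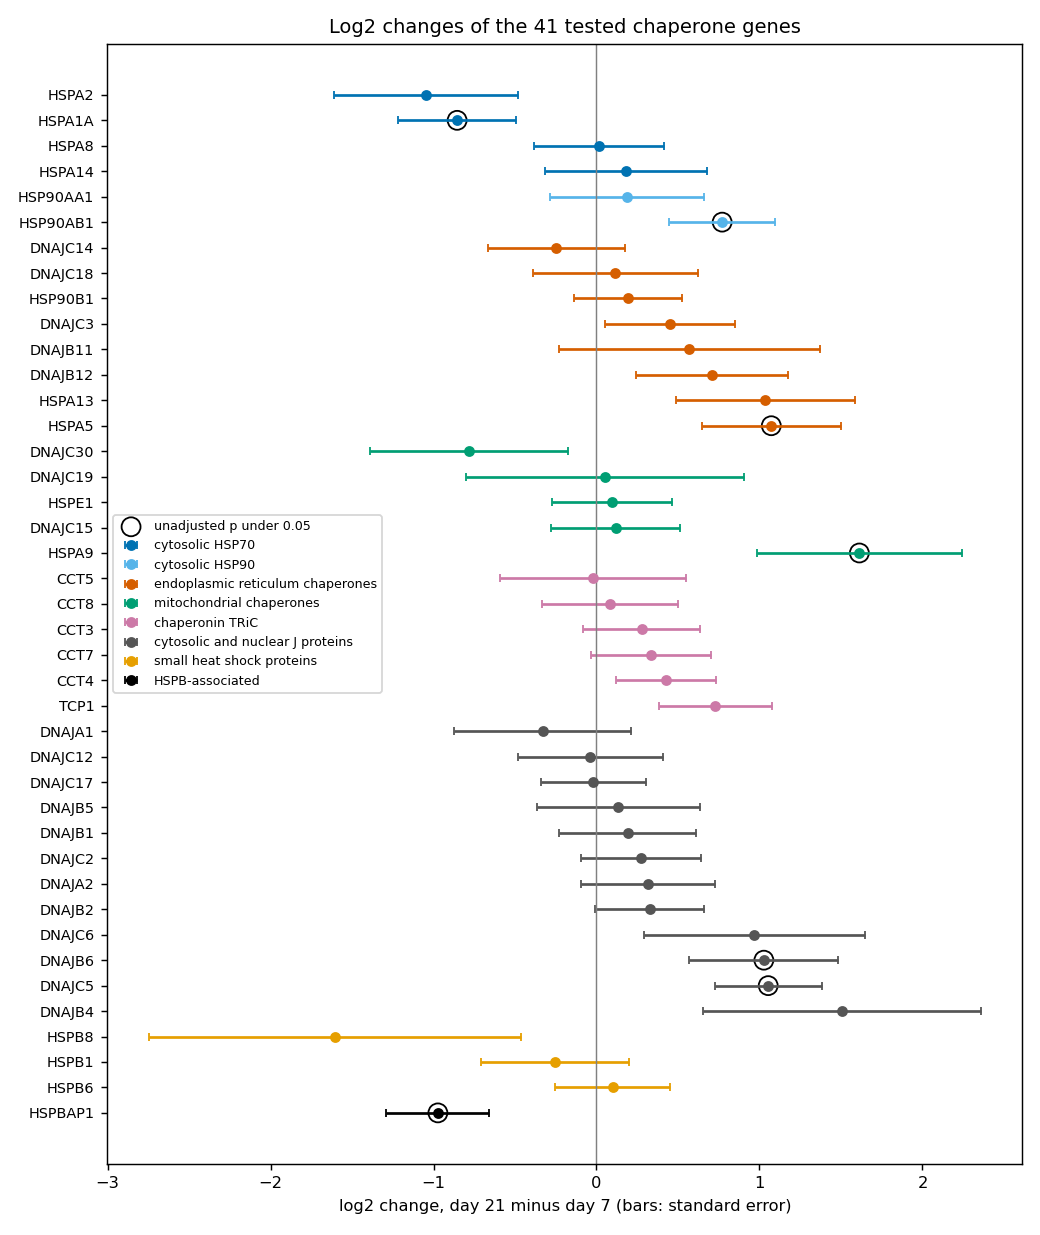
Change from day 7 to day 21 (log2, x axis) of the 41 tested chaperone genes, grouped by family; points are the difference of means of 4 arrays and bars the standard error from limma. Circles mark the 7 genes with an unadjusted p under 0.05, and changes run from -1.60 (HSPB8) to 1.61 (HSPA9).

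The cytosolic HSP70 genes split. Of 4 tested, 2 had a change above 0 and 2 below (1 and 3 after normexp and quantile normalization), with a median of -0.42. The share above 0 among all tested genes was 57.6%. HSPA1A, the stress-inducible HSP70, read 2.36, 2.94, 2.93 and 3.20 in cows 1 to 4 on day 7 and 1.71, 2.63, 1.71 and 1.95 on day 21. It was lower in 4 of 4 cows, although the groups overlap because day 21 of cow 2 is above day 7 of cow 1. The change was -0.86 ± 0.36 (a 1.81-fold lower level; unadjusted p = 0.0396, adjusted p = 0.514 in limma). Within slides 1, 3 and 4 it was -0.94, -1.22 and -1.25.

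The dimmer HSPA1A probe, whose sequence is shown above, went the same way less evenly. Its values were -0.07, 1.28, -0.47 and -0.03 on day 7 and 0.12, -0.41, -0.90 and -0.84 on day 21. It was lower in 3 of 4 cows and slightly higher in cow 1, with a change of -0.69 ± 0.45 (unadjusted p = 0.157, adjusted p = 0.662 in limma). With names from accession or gene identifier alone, this probe stands for the gene, whose unadjusted call is then lost. The brighter probe holds the hexamer AATAAA, the letters of the usual polyadenylation signal, from position 51, on the strand as printed on the array. So do 6 of the 45 members' brightest probes (13.3%) and 11.3% of all probes; where these probes lie in their transcripts was not tested.

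HSPA2, an HSP70 best known from the testis, read -2.40, -2.34, -3.71 and -3.30 on day 7 and -2.39, -4.40, -4.81 and -4.33 on day 21. The 3 lowest day 21 arrays lie below every day 7 array, while cow 1 hardly differed between days (0.02). The change was -1.05 ± 0.57 (adjusted p = 0.606 in limma). HSPA8, the constitutive HSP70 that also uncoats clathrin vesicles, showed no common direction. It read 5.89, 5.43, 5.78 and 5.58 on day 7 and 4.997, 5.23, 6.37 and 6.15 on day 21. Cows 1 and 2 were lower and cows 3 and 4 higher on day 21, and the change of 0.02 ± 0.40 was well inside its error; after normexp and quantile normalization it was -0.19. HSPA14, which works at the ribosome, had a change of 0.18 ± 0.50 (-0.08 with array weights).

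**Figure D2:**
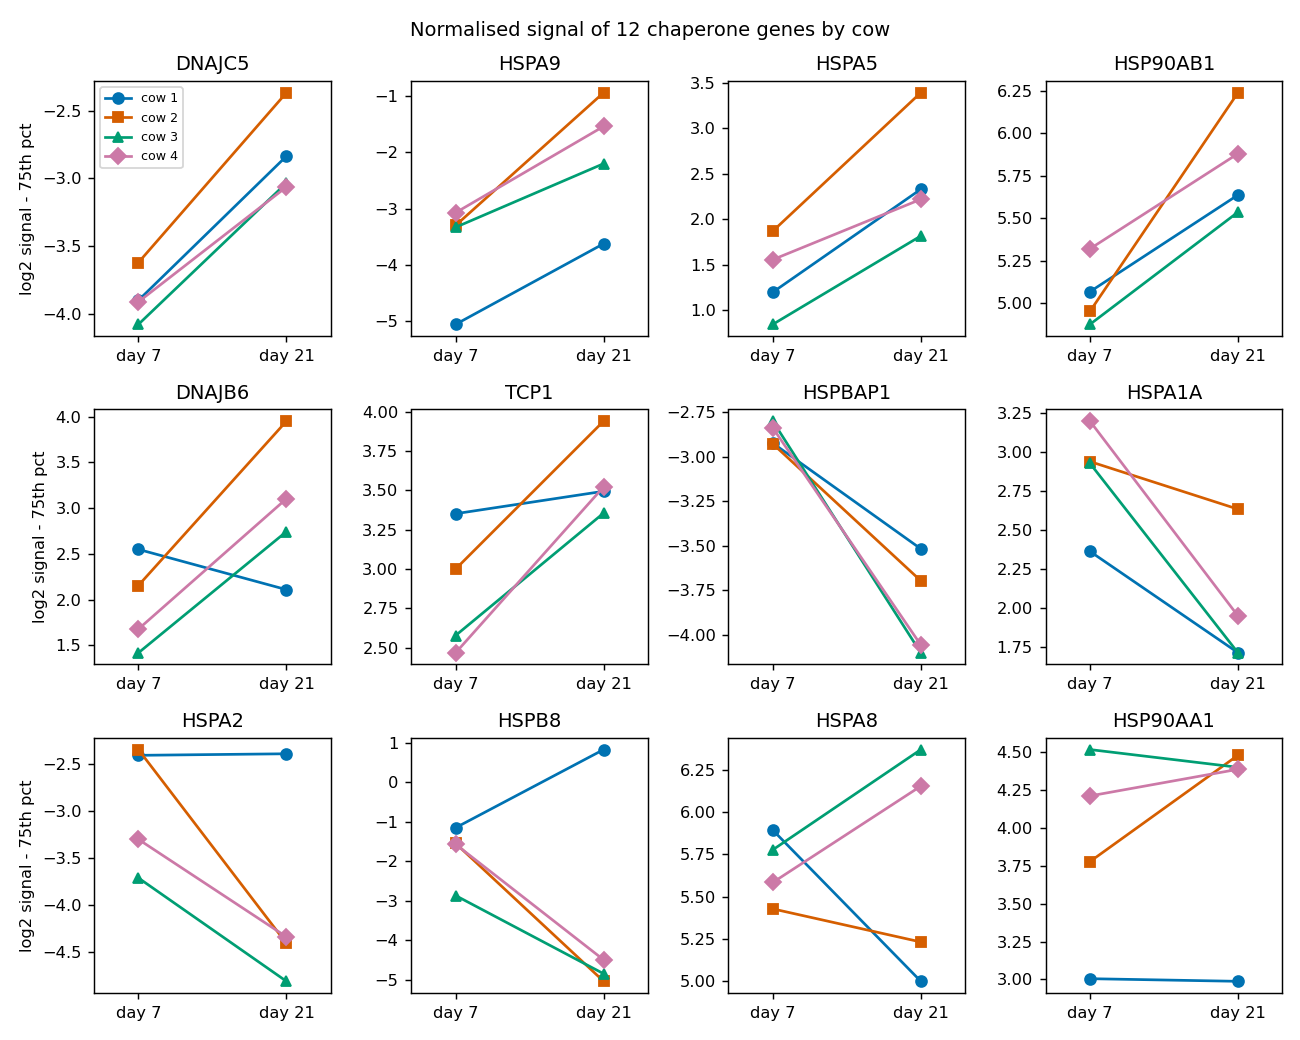
Normalised signal (log2 minus the array's 75th percentile, y axis, own range per panel) of 12 chaperone genes on day 7 and day 21; each line joins the 2 arrays of a cow. DNAJC5, HSPA9, HSPA5, HSP90AB1 and TCP1 go up in all 4 cows, HSPBAP1 and HSPA1A go down in all 4, and cow 1 goes against the other cows in DNAJB6 and HSPB8.

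Both cytosolic HSP90 genes had a change above 0, as did 57.6% of all tested genes. Only HSP90AB1, the constitutive form, separated the days. Its values were 5.07, 4.95, 4.87 and 5.32 on day 7 and 5.64, 6.24, 5.54 and 5.88 on day 21. Every day 21 array was above every day 7 array. The difference was largest in cow 2, whose arrays lay on different slides. The change was 0.77 ± 0.33 (1.71-fold; unadjusted p = 0.0391, adjusted p = 0.514 in limma). Within slides 1, 3 and 4 it was 0.63, 0.66 and 0.56. With slide as a fixed block, where day 21 of cow 2 carries no weight, the unadjusted p in limma was 0.0580. HSP90AA1, the inducible form, read 3.01, 3.78, 4.52 and 4.21 on day 7 and 2.99, 4.48, 4.40 and 4.39 on day 21. Both arrays of cow 1 were below all others, and the days overlap. The change was 0.19 ± 0.47, and slide as a fixed or a random block turned it to -0.14 or -0.01.

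The endoplasmic reticulum chaperones had the highest family median, 0.51, among the families with at least 2 tested genes, followed by cytosolic HSP90 at 0.48. Of 8 tested, 7 were above 0, beside 57.6% of all tested genes. The family's median difference was -0.27 in cow 1 and 0.39, 0.78 and 0.54 in cows 2 to 4. HSPA5 (BiP), the HSP70 of the reticulum which also holds the sensors of the unfolded protein response, read 1.20, 1.87, 0.84 and 1.55 on day 7. On day 21 it read 2.33, 3.39, 1.82 and 2.22. It was higher in 4 of 4 cows, and the groups touch only because day 7 of cow 2 (1.87) is above day 21 of cow 3 (1.82). The change was 1.07 ± 0.42 (2.10-fold; unadjusted p = 0.0292, adjusted p = 0.502 in limma). With cow as a replicate block the unadjusted p was 0.00547 and the adjusted p 0.158. Within slides 1, 3 and 4 the difference was 0.80, 0.97 and 0.66.

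HSP90B1 (GRP94), which folds Toll-like receptors and integrins, differed little: 4.25, 3.54, 3.44 and 3.59 on day 7 against 4.04, 3.79, 3.89 and 3.89 on day 21. It was higher in 3 of 4 cows and the day 21 arrays lie inside the day 7 range, with a change of 0.19 ± 0.33. HSPA13, another HSP70 of the reticulum, had 1.04 ± 0.55 (higher in 3 of 4 cows). Among the J proteins there, DNAJB12 of the membrane had 0.71 ± 0.47 (4 of 4 cows), DNAJB11 (ERdj3), a partner of HSPA5, 0.57 ± 0.80, DNAJC3 (p58IPK) 0.45 ± 0.40 and DNAJC18 0.11 ± 0.51. DNAJB11 depended on cow 1, whose day 7 value of -2.64 is the lowest of the 8; without that array its change was -0.11. DNAJC14 was the member of this family below 0, at -0.25 ± 0.42.

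A pair of array features named DNAJC14 gives a direct measure of spot error, since both carry the same 60 bases. The array's own descriptions of them differ, and that of 1 feature names another gene. The log2 values of these features differed by a median of 0.0347 over the 8 arrays and by 0.48 on day 21 of cow 2, the array with 129 outlier spots. The median over the 64 tested pairs of identical probes was 0.212. The second feature had a change of -0.42 ± 0.37, so both lay below 0.

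**Figure D3:**
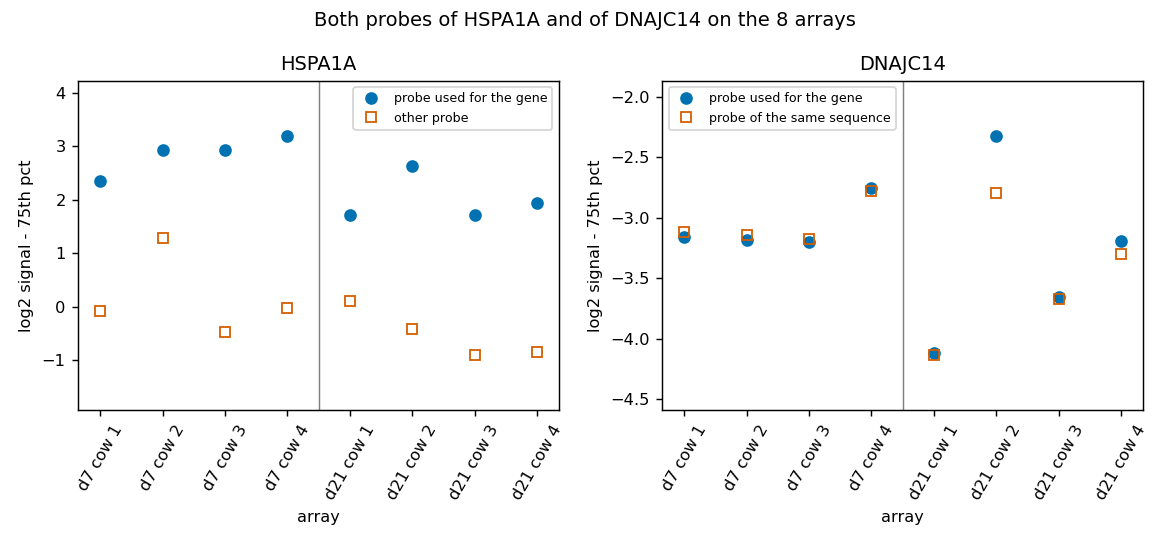
Normalised signal (log2 minus the array's 75th percentile, y axis) of both probes of HSPA1A, which differ in sequence, and of DNAJC14, which do not, on the 8 arrays (x axis; d7 and d21 are the days). The DNAJC14 points nearly coincide except on day 21 of cow 2, where they lie 0.48 apart, and both HSPA1A probes are lower on day 21 in cows 2, 3 and 4.

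The mitochondrial chaperones held the highest single change. HSPA9 (mortalin), the HSP70 that pulls proteins through the inner membrane, read -5.05, -3.30, -3.33 and -3.07 on day 7 and -3.62, -0.94, -2.20 and -1.54 on day 21. All 4 cows were higher on day 21, and the groups overlap only through cow 1, whose arrays are the lowest of each day. The change was 1.61 ± 0.63 (3.06-fold; unadjusted p = 0.0277, adjusted p = 0.502 in limma). With cow as a replicate block the unadjusted p was 0.00121 and the adjusted p 0.124, and within slides 1, 3 and 4 the difference was 0.55, 1.13 and 1.53. With slide as a fixed block, where day 21 of cow 2 carries no weight, the change was 1.02 and the unadjusted p in limma 0.0639.

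The other mitochondrial members did not follow. HSPE1, the lid of the HSPD1 chaperonin, read 3.04, 2.00, 2.34 and 1.80 on day 7 and 2.55, 2.17, 2.57 and 2.26 on day 21. The day 21 values fall inside the day 7 range, and the change was 0.09 ± 0.37. DNAJC30, a mitochondrial J protein, read -2.96, -3.29, -4.99 and -3.12 on day 7 and -3.08, -5.10, -5.31 and -3.98 on day 21. It was lower in 4 of 4 cows with a change of -0.78 ± 0.61, most in cow 2 (-1.81), whose arrays lay on different slides. DNAJC15 (0.12 ± 0.39) and DNAJC19 (0.05 ± 0.85), both of the import motor, were near 0. The DNAJC19 mean hides opposite signs: cow 1 differed by 3.45 from a day 7 value of -5.19, and the other cows by -0.96 to -1.22.

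The TRiC subunits, which assemble into 1 ring complex, had changes between -0.02 and 0.73, with a median of 0.31. Of 6 tested, 5 were above 0, beside 57.6% of all tested genes. TCP1, the first subunit, read 3.35, 3.00, 2.58 and 2.47 on day 7 and 3.49, 3.94, 3.36 and 3.52 on day 21. Every day 21 array was above every day 7 array, though day 21 of cow 3 and day 7 of cow 1 differ by little. The change was 0.73 ± 0.35 (1.66-fold; unadjusted p = 0.0607, adjusted p = 0.556 in limma; unadjusted p = 0.0330 with cow as a replicate block). CCT4 also separated the days, from 3.42 to 3.86 on day 7 and from 3.99 to 4.22 on day 21, a change of 0.43 ± 0.31. CCT7 (0.34 ± 0.37), CCT3 (0.28 ± 0.36), CCT8 (0.08 ± 0.42) and CCT5 (-0.02 ± 0.57) overlapped between days.

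Of the cytosolic and nuclear J proteins, 9 of 12 tested had a change above 0 (8 after normexp and quantile normalization), with a median of 0.29. The share above 0 among all tested genes was 57.6%. Of the 12, 2 were higher at an unadjusted p under 0.05, beside 5.3% of all tested genes. DNAJC5 (cysteine string protein), which sits on secretory vesicles and is needed for exocytosis, had the smallest p of all 41 members. It read -3.90, -3.62, -4.08 and -3.91 on day 7 and -2.83, -2.37, -3.03 and -3.06 on day 21. The groups are well apart, and the 4 cows gave nearly the same difference, 1.07, 1.26, 1.04 and 0.85. The change was 1.05 ± 0.33 (2.08-fold; unadjusted p = 0.00877, adjusted p = 0.427 in limma). Its unadjusted p stayed under 0.05 in all 12 fits that left out an array or a cow; with normexp background correction the change was 0.64 and p was 0.0739.

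DNAJB6, a J protein that holds back aggregation of polyglutamine proteins, read 2.55, 2.15, 1.42 and 1.68 on day 7 and 2.11, 3.95, 2.74 and 3.10 on day 21. Cows 2, 3 and 4 were higher by 1.33 to 1.80, while cow 1 was lower by 0.44 and makes the groups overlap. The change was 1.03 ± 0.46 (2.04-fold; unadjusted p = 0.0471, adjusted p = 0.527 in limma); within slides 1, 3 and 4 it was -0.24, 1.33 and 1.43. With a fixed block for slide, where day 21 of cow 2 carries no weight, the change was 0.73 and the unadjusted p in limma 0.114. The classical HSP70 partners did not separate. DNAJB1 read 2.10, 0.81, 0.97 and 0.72 on day 7 and 1.64, 1.83, 1.04 and 0.85 on day 21, a change of 0.19 ± 0.42. DNAJA1 read 1.85, 1.82, 2.67 and 2.52 on day 7 and 1.44, 0.52, 2.61 and 2.97 on day 21, a change of -0.33 ± 0.54 (0.32 with array weights). In both genes the days overlap and the cows differ in sign.

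DNAJA2, also an HSP70 partner, had 0.31 ± 0.41 from its brighter probe and 0.45 ± 0.39 from the other, which was higher in 4 of 4 cows. The highest change of this family was that of DNAJB4, 1.504 ± 0.85, but on day 7 its probe was well above background on 2 of 4 arrays. The day 7 array of cow 1 held a surrogate value there, and the differences of the 4 cows were 2.46, 3.597, -0.29 and 0.25. DNAJC6 (auxilin), which recruits HSPA8 to clathrin coats, was likewise well above background on 2 of 4 day 7 arrays; it was higher in 4 of 4 cows, with 0.97 ± 0.68. The remaining members, DNAJB2 (0.33), DNAJC2 (0.27), DNAJB5 (0.13), DNAJC17 (-0.02) and DNAJC12 (-0.04), had changes smaller than their standard errors.

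**Figure D4:**
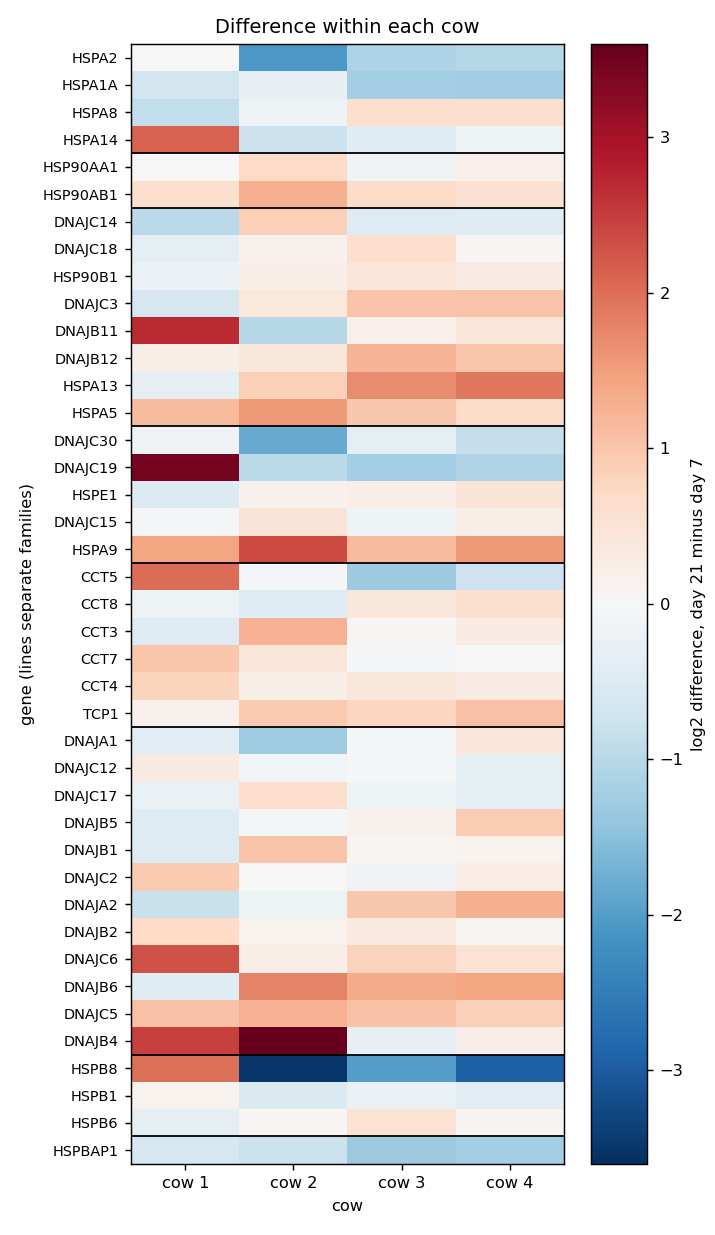
Difference from day 7 to day 21 within each cow (log2, colour scale; red is higher on day 21) for the 41 tested chaperone genes, in the family order of the plot of changes. HSPA9, HSPA5, HSP90AB1 and DNAJC5 are red in every cow, HSPBAP1 and HSPA1A blue in every cow, and DNAJC19 and HSPB8 show cow 1 opposite to the other cows.

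The small heat shock proteins, ATP-independent holders of unfolded clients, had 1 of 3 tested above 0, beside 57.6% of all tested genes. Their median was -0.25. HSPB8, which acts with BAG3 in chaperone-assisted autophagy, read -1.15, -1.55, -2.87 and -1.57 on day 7 and 0.82, -5.04, -4.85 and -4.50 on day 21. Day 21 of cow 1 is the highest of the 8 arrays and the other day 21 arrays are the 3 lowest. The change was -1.60 ± 1.14 (unadjusted p = 0.189, adjusted p = 0.683 in limma). With cow 1 left out on day 21 the change was -3.01 with an adjusted p of 0.0352 in limma. This was the only chaperone call in the fits that left out an array or a cow. The same fit called 12 probes higher and 29 lower over the array, beside 0 in the main fit. HSPB1 (HSP27), which binds actin filaments, read 4.76, 3.92, 3.96 and 3.61 on day 7 and 4.90, 3.41, 3.73 and 3.19 on day 21. It was lower in 3 of 4 cows by 0.23 to 0.51, and cow 1 lay above the other cows on both days; the change was -0.25 ± 0.45 (0.03 with slide as a fixed block). HSPB6 had 0.10 ± 0.36.

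HSPBAP1, a protein that binds HSPB1 and is no heat shock protein itself, shared the symbol stem and was the clearest gene below 0. It read -2.92, -2.93, -2.80 and -2.84 on day 7 and -3.52, -3.70, -4.10 and -4.06 on day 21. The day 7 values are nearly equal (SD 0.06) and every day 21 array is below them. The change was -0.97 ± 0.32 (1.96-fold lower; unadjusted p = 0.0110, adjusted p = 0.447 in limma). Within slides 1, 3 and 4 it was -0.59, -1.30 and -1.22. It was -0.53 with normexp background correction, where p was 0.113.

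The members that were not tested were DNAJC1 of the reticulum, DNAJB13, known from sperm flagella, and the small heat shock proteins HSPB3 and HSPB9. They were well above background on 0 or 1 of 4 arrays in each group, so no difference was measured.

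Partner genes were read from lists of known components, with the values of the 2 smallest p in each direction. None of 5 heat shock factor genes was among the named probes. Among all tested genes, 57.6% were above 0, with 5.3% higher and 3.3% lower at an unadjusted p under 0.05. The co-chaperones were not tested against these shares. Of 17 co-chaperones of HSP70 and HSP90, 9 were above 0 and 8 below (median 0.15), with 1 higher and 0 lower at an unadjusted p under 0.05. SUGT1, an HSP90 co-chaperone of immune receptors, was that gene: 0.97, 1.48, 1.61 and 1.42 on day 7 and 1.69, 2.87, 2.30 and 2.36 on day 21, a change of 0.93 ± 0.36 (unadjusted p = 0.0274, adjusted p = 0.502 in limma), with no overlap between days. BAG1, a nucleotide exchange factor, had 0.61 ± 0.34. AHSA1, which speeds the HSP90 ATPase, had -0.65 ± 0.35, and STIP1, which bridges HSP70 and HSP90, -0.42 ± 0.36.

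Folding enzymes and stress regulators of the endoplasmic reticulum lay mostly above 0, as did 57.6% of all tested genes, of which 5.3% were higher at an unadjusted p under 0.05; the lists were not tested against them. Of 11 tested folding genes, 9 were above 0 (median 0.36) and 1 was higher at that threshold. That gene was P4HB, protein disulfide isomerase, with 2.66, 3.34, 4.10 and 4.00 on day 7 and 4.18, 4.47, 4.77 and 4.73 on day 21; the days do not overlap, and the change was 1.01 ± 0.40 (adjusted p = 0.502 in limma). CRELD2, induced by stress of the reticulum, had 0.80 ± 0.41, and below 0 were CALR (-0.20 ± 0.45) and SDF2L1 (-0.13 ± 0.43). HYOU1, the large HSP70 relative there, was well above background on no array. Of 4 unfolded protein response regulators, 3 were above 0 (median 0.72): TRIB3 0.99 ± 0.44 (unadjusted p = 0.0476, adjusted p = 0.527 in limma), ATF3 0.90 ± 0.55 and XBP1 0.54 ± 0.64, with ATF6B at -0.18 ± 0.37. ATF3 and TRIB3 also respond to other stresses.

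Prefoldin, which hands actin and tubulin to TRiC, was divided, with 3 of 6 subunits above 0 (median 0.05) and none at an unadjusted p under 0.05 in either direction. Of all tested genes, 57.6% were above 0, with 5.3% higher and 3.3% lower at that threshold. PFDN4 (0.85 ± 0.43) and VBP1 (0.77 ± 0.56) were above 0, and PFDN6 (-0.58 ± 0.52) and PFDN2 (-0.51 ± 0.44) below. Of 5 genes of mitochondrial import and protein quality, 4 were above 0 (median 0.39), also with none at that threshold. LONP1, the matrix protease, had 0.70 ± 0.40, GRPEL1, the exchange factor of HSPA9, 0.39 ± 0.33, and CLPP -0.04 ± 0.33.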

How the data were processed

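RNA of 8 granulocyte samples was labelled with Cy3 and hybridised to 1-colour Agilent arrays, per the labels' protocols. Spot intensity was deposited as scanner tables made with Agilent Feature Extraction 9.5, as the submitters' processing notes name it; the processed signal is background-subtracted, per the file headers, with surrogate values for signals at background. The deposited series table holds log2 values equal to log2 of that signal minus 1 constant per array, within 0.00485, and the constant lay -0.0138 to 0.0439 from the 75th percentile; its column medians were -3.53 to -3.29, and its direction is settled, while the reason for the offset is unknown. It was an alternative only.

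From each array, 536 control spots and outlier spots (0 to 12, and 129 on day 21 of cow 2) were left out. Of 15208 probes, the 10459 that lay well above background on 4 or more of the 8 arrays were tested, and 4749 were left out. Names came from RefSeq's bovine genes (ARS-UCD2.0), through accession (2514 probes), gene identifier (2013), gene name (1550) or description (134), and 8997 had none. A gene is represented by the probe with the highest mean. Day 21 was set against day 7 in 1 fit over all probes with limma's lmFit and eBayes (version 3.58.1, R 4.3.3), without a block and with Benjamini-Hochberg adjustment. The script was tested on simulated data. The number of arrays limits the precision. Cow numbers pair the samples because the source names give the same animals. Deviations from the group means correlated at 0.476, 0.172, 0.752 and 0.436 within cows 1 to 4 and at -0.474 to 0.302 between cows. Cows 1, 3 and 4 each had both arrays on the same slide and cow 2 did not. These correlations therefore cannot tell animal from slide. Families were grouped by hand; the members, lists and families were chosen with earlier results of these data known. Members named with every sample's value were the 6 of smallest p in each direction and a set of well-known chaperones; others are given by range, count or change. Partner genes were named by the 2 smallest p in each direction of a list. RefSeq promoter and protein sequences were not used here, and no coordinates are given, since no source used here names the build of the array. Alternatives were blocks for cow or slide, array weights, normexp background with percentile or quantile scaling, median centring, other detection filters, the deposited series table, averaging a gene's probes, names from accession or gene identifier alone, leaving out HSPBAP1, and leaving out arrays or cows.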

Additional observations from a re-analysis of the deposited data

Results flagged for a closer look

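Among the 18 chaperone genes given with a value for every sample, Dixon's gap test was run on the 36 groups of 4 arrays, and 4 stood out. Chance marks about 1 in 20 groups that are independent and not chosen by their values. These groups share the same arrays, and part of the genes were chosen by their p in these data. That rate is therefore no measure for this set. The day 7 array of cow 1 was far below the others for HSPA9 (-5.05). The day 21 array of cow 1 was far above the others for HSPB8 (0.82) and far below them for HSP90AA1 (2.99). The day 7 array of cow 3 was far below the others for DNAJC30 (-4.99). Of the 4 values, 3 come from cow 1, whose arrays lie on slide 1 with day 7 of cow 2. For HSPA9 on day 7, cow 2 on that slide read -3.30, and cows 3 and 4 read -3.33 and -3.07. Whether animal, array or slide set the value of cow 1 was not tested. For the day 21 values, slide 1 held cow 1 alone, so animal and slide cannot be told apart.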

How the results depend on the processing

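Direction held for 33 of 41 members under every alternative that kept all arrays, for 22 when arrays or cows were left out, and for 21 under both. The adjusted threshold was passed by members only with array quality weights and by HSPB8 without day 21 of cow 1 (-3.01). That last fit called 12 probes higher and 29 lower. The weights also set the counts furthest apart: 879 probes higher and 821 lower adjusted, 1889 and 1593 unadjusted, 7 members higher and 4 lower adjusted, 10 and 4 unadjusted. With cow as a replicate block, unadjusted counts were 1031 and 938 probes and 9 members higher; this pairing changed no adjusted call. Slide as a random block gave 2 probes higher and 10 lower adjusted, 806 and 704 unadjusted, and 9 members higher. At an unadjusted p under 0.05, 3 members were higher and 1 lower without the filter on dim probes, beside 453 and 593 over all probes. The same member counts came with names from accession or gene identifier alone, beside the 522 and 461 probes of the main fit. That naming left 30 tested members and read HSPA1A by its other probe (-0.69). Also, 1 member was lower with normexp and percentile scaling (404 probes lower) or with averaged probes (456 lower). Without HSPBAP1, which was itself 1 of the 2 lower members of the main fit, 1 was lower beside 461 probes.

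Small changes turned sign: DNAJA1 0.32, HSPA14 -0.081 and DNAJC19 -0.96 (array weights); DNAJC12 0.084, DNAJC19 -0.027 and HSP90AA1 -0.014 (slide random); DNAJC12 0.14, DNAJC19 -0.016, HSP90AA1 -0.14 and HSPB1 0.030 (slide fixed); DNAJC19 -0.24 (normexp, percentile); DNAJB5 -0.017, DNAJC19 -0.20 and HSPA8 -0.19 (normexp, quantile). Apart from members lost or left out and the probe switched, the cause was not tested.

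Leaving out arrays or cows gave 0 to 15 probes higher and 0 to 29 lower adjusted, 181 to 985 and 187 to 860 unadjusted, 1 to 7 members higher and 0 to 5 lower unadjusted, 0 to 1 lower adjusted, and a median change of 0.15 to 0.33. Ranges that crossed 0 were CCT3 (-0.048 to 0.53), CCT5 (-0.70 to 0.40), CCT8 (-0.11 to 0.36), DNAJA1 (-0.69 to 0.12), DNAJA2 (-0.0028 to 0.69), DNAJB1 (-0.086 to 0.51), DNAJB11 (-0.14 to 1.16), DNAJB5 (-0.32 to 0.45), DNAJC12 (-0.38 to 0.18), DNAJC14 (-0.62 to 0.019), DNAJC15 (-0.051 to 0.34), DNAJC17 (-0.24 to 0.084), DNAJC18 (-0.21 to 0.52), DNAJC19 (-1.08 to 0.62), HSP90AA1 (-0.11 to 0.54), HSPA14 (-0.46 to 0.50), HSPA8 (-0.21 to 0.32), HSPB6 (-0.11 to 0.23), HSPE1 (-0.073 to 0.34). Depth cannot resolve the 4 untested members, and DNAJB4, DNAJB5 and DNAJC6 were well above background on 2 or 3 of 4 day 7 arrays.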

Other observations

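Some probes carried no gene name but were described on the array as similar to a chaperone; 7 were found, and 6 passed the detection filter. The probe described as similar to TRiC subunit 2 read 0.23, 1.76, 2.55 and 2.48 on day 7 and 1.80, 3.40, 2.96 and 3.01 on day 21. It was higher in 4 of 4 cows, by 0.41 to 1.64, and the days overlap because of cow 1; the change was 1.04 ± 0.57 (adjusted p = 0.609 in limma). The probe similar to subunit 6B had 0.62 ± 0.82, with a day 7 value of -3.38 in cow 1 and differences of both signs. The probe similar to the protein that HSPH1 encodes, a nucleotide exchange factor of HSP70, had -0.03 ± 0.48. Probes similar to DNAJC11, DNAJC13 and DNAJB14 had 0.76 ± 0.43, 0.69 ± 1.21 and 0.16 ± 0.39, and the one similar to heat shock protein 12A was well above background on no array.
The day 7 array of cow 1 was the lowest of the 8 for 9 of the 41 members (22%, beside 18.3% of all genes) and the highest for 10 (20.7% of all genes). Day 7 of cow 3 was also the lowest for 9 (22%, beside 14.9%), and day 7 of cow 4 for 8 (19.5%, beside 8.77%). Day 7 of cow 1 gave the lowest value of CCT5, DNAJB11 and DNAJC19, at -3.41, -2.64 and -5.19.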
